A study of Homo sapiens with 66 samples.

Results

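The collagen genes were taken as every protein-coding GENCODE gene whose symbol consists of COL, a type number, the letter A and a chain number. A total of 44 of the 58721 gene IDs in each deposited table met this rule. No measured value entered it, but the family was chosen with earlier results of these data known. By the structure of the protein, 11 encode fibrillar chains, 6 basement membrane chains of type IV, 4 transmembrane chains, 10 fibril-associated chains, 5 chains of the beaded filament type VI, 2 multiplexins, 3 short-chain network chains and 3 other types. Counts of poly(A) RNA reads were available for 66 libraries of A375, an established melanoma line that carries mutant BRAF.

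The libraries formed 22 groups of 3 replicates in 3 experiments, each with its own count table. In the Mediator experiment, cells carried a control guide against GFP or 1 of 2 guides against MED12, MED19 or MED23, and received DMSO or 1 µM vemurafenib, an inhibitor of mutant BRAF kinase, for 24 h. In the SOX10 experiment, cells with the GFP guide or with MED23 guide 1 carried an empty vector or a SOX10 overexpression construct. In the HDAC3 experiment, control cells were compared with HDAC3 knockout, MED23 knockout and double knockout cells. For the last 2 experiments the labels give no treatment for each sample. All groups share the A375 background, and the labels do not say whether knockout cells were clones or pools, nor whether replicates were separate cultures. The p-values therefore measure the spread between these libraries, which may be technical.

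Collagens are proteins of 3 alpha chains wound into a triple helix, and a type may hold identical or different chains. Fibrillar types I, II, III, V and XI form cross-striated fibrils, with type V and XI chains at the core of the thicker fibrils of type I or II. Types XXIV and XXVII are counted here as fibrillar too. Type IV chains form the sheet-like network of basement membranes, transmembrane types XIII, XVII, XXIII and XXV cross the plasma membrane of the cell that makes them, and fibril-associated types such as XII and XIV sit on fibril surfaces. Melanoma cells lie on or break through a basement membrane, and melanocyte lineage cells meet type IV and type VII collagen at the border of epidermis and dermis. Mediator bridges DNA-bound activators and RNA polymerase II. MED12 belongs to its kinase module, MED19 and MED23 to its core. SOX10 drives gene expression in neural crest cells and melanocytes, and HDAC3 removes acetyl groups from histones as part of NCOR corepressors.

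Libraries of the Mediator experiment held 65.88 to 211.8 M counts (median 112.6). Depth was lowest in the SOX10 experiment, at 24.87 to 30.77 M (median 27.71), and libraries with HDAC3 knockout and their controls held 58.84 to 106.2 M (median 68.52). The RNA of each target was lower in every knockout: on the log2 scale, MED12 changed by -2.04, MED19 by -1.05 and MED23 by -1.12 in the Mediator experiment, MED23 by -0.95 and -1.07 in the other experiments, and HDAC3 by -0.97. Overexpression raised SOX10 RNA by 0.19 (log2) in control-guide cells and by 0.80 in MED23 knockout cells. Over all libraries, endothelial markers summed to at most 29.6 CPM (counts scaled to library size), blood cell markers to at most 2.95 CPM, keratinocyte markers to at most 69.9 CPM and fibroblast markers to at most 182 CPM. Melanoma markers, a list of 8 genes, summed to between 876 and 953 CPM in the DMSO controls and, at the lowest, to between 161 and 174 CPM with MED12 guide 2 and drug, where the fibroblast sum was 169 to 182 CPM.

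After a filter on low counts, 43 of the 44 collagen genes were tested in the Mediator experiment, 33 in the SOX10 experiment and 35 in the HDAC3 experiment. COL6A5 was tested in none of them. In addition, the SOX10 experiment did not test COL1A2, COL4A3, COL6A6, COL10A1, COL20A1, COL22A1, COL23A1, COL25A1, COL26A1 and COL28A1, and the HDAC3 experiment left out the same genes apart from COL4A3 and COL22A1. Below, a log2 fold change is followed by ± its SE and by a Benjamini-Hochberg adjusted p from edgeR's quasi-likelihood test over all genes of the experiment, with 3 libraries per group. The words rose and fell are kept for an adjusted p under 0.05, and no fold is given where a group's 3 libraries together held under 30 counts of the gene. CPM are scaled for library composition, and levels of different genes are compared only per kilobase of exon (RPKM).

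Collagen RNA of untreated A375 cells came mostly from a few chains. In control-guide cells in DMSO, COL9A3, a chain of the cartilage-type fibril-associated collagen IX, led with 52.3 ± 2.29 RPKM (SD, n = 3). The type IV chains COL4A2 and COL4A1 stood at 41.1 ± 1.78 and 28.8 ± 0.922 RPKM, the type VI chain COL6A1 at 34.5 ± 1.33 RPKM and the fibrillar chain COL5A2 at 33 ± 0.627 RPKM. COL6A1 and COL5A2 differed by less than the sum of their SDs, so their order is not resolved, whereas COL9A3 and COL4A2 were each apart from their neighbours. These 5 genes held 78.2% of the summed collagen RPKM, and the leading 5 held 78.3% in the empty-vector cells and 78.2% in the control cells of the HDAC3 experiment. The chains of type I collagen, the main fibril of skin and bone, were low: COL1A1 reached 0.381 ± 0.0817 RPKM and ranked 23, and COL1A2 ranked 35 with 0.0188 RPKM. Between 30 and 33 of the 44 genes reached 1 CPM in at least 1 group of an experiment, and between 17 and 25 reached 10 CPM.

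Several members lie close together in the genome, and the part of this arrangement in their values was not tested. On GRCh38, COL4A1 (chr13:110148963-110307233, minus strand) and COL4A2 (chr13:110305812-110513209, plus strand) are transcribed away from each other, with 126 bases between their RefSeq starts. The pairs COL4A4 with COL4A3 and COL4A6 with COL4A5 are arranged the same way, 418 and 379 bases apart. COL5A2 and COL3A1 lie tail to tail on chromosome 2 with a gap of 19149 bases. The stretch between the COL4A1 and COL4A2 starts (chr13:110307158-110307283, plus strand) is shown because both chains are read from it, and the 250 bases before COL4A5 (chrX:108439588-108439837, plus strand) because they lie within the stretch shared with COL4A6. The 250 bases before the RefSeq starts of COL5A1 (chr9:134641553-134641802, plus strand), COL13A1 (chr10:69801656-69801905, plus strand), COL17A1 (chr10:104085881-104086130, minus strand) and COL11A1 (chr1:103108523-103108772, minus strand) are shown because each of these genes rose or fell with all 3 Mediator subunits. All were taken from RefSeq on GRCh38.p14 and are written 5′ to 3′ on the stated strand, with matches to the motifs named after them in capitals.
COL4A1 and COL4A2: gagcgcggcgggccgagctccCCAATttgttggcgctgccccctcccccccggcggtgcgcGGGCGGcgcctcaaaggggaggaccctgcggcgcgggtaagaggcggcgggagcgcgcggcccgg
COL4A5: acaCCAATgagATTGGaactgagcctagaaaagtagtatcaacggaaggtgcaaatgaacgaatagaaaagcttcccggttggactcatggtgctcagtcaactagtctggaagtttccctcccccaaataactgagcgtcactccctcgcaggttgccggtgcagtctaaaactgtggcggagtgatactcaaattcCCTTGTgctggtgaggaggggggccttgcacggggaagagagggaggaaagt
COL5A1: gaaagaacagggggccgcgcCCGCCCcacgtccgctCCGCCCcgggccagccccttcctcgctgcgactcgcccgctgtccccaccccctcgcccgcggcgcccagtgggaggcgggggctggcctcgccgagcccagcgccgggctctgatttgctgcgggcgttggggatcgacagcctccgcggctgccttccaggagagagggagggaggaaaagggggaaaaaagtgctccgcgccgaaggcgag
COL13A1: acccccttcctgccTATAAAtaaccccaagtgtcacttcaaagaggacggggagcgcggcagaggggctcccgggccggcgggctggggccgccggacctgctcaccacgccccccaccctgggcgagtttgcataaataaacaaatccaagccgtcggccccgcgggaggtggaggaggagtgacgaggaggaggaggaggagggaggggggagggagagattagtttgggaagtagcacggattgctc
COL17A1: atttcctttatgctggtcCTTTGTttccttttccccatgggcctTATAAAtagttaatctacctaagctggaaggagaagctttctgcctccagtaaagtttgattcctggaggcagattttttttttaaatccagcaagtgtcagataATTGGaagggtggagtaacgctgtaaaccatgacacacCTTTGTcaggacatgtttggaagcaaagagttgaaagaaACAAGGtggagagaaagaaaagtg
COL11A1: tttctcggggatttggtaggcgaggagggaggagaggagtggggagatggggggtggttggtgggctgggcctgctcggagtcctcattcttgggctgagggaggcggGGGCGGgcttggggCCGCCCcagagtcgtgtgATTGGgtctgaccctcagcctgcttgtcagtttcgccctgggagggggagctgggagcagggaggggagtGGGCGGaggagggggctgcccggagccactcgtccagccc

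Promoter sequences, 250 bases before to 50 after a start, were matched for 32 of the 44 genes and searched on both strands for 6 short motifs. TATAAA, the core of a TATA box, matched in 7 of the 32 against 11.5% of 35116 RefSeq promoters, CCAAT in 12 against 34.6%, and GGGCGG, a GC box, in 21 against 45.0%. TGANTCA, the site of AP-1 factors, matched in 1 (7.7%), GGAATG, the site of TEAD factors, in 3 (14.0%), and ACAANG, a core read by SOX factors, in 10 (35.5%). In the sequences above, COL13A1 and COL17A1 each hold 1 TATAAA, COL5A1 holds 2 GGGCGG and COL11A1 3, and the stretch between COL4A1 and COL4A2 holds 1 CCAAT and 1 GGGCGG in 80.2% G and C. A match describes the letters only.

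Vemurafenib, which blocks the growth signal of mutant BRAF, was followed by higher RNA of most collagen genes in control-guide cells. Of the 43 tested genes, 28 were called higher and 9 lower, against 35.8% and 30.3% of all genes tested. The median log2 fold change of the collagen genes was 1.11, and that of all genes 0.106. By structure, 8 of 11 fibrillar, 4 of 6 basement membrane, 2 of 4 transmembrane and 7 of 10 fibril-associated genes were higher, and 3, 2, 1 and 1 were lower. In bulk RNA, a change in the share of cells that make a chain and a change in RNA per cell cannot be told apart.

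Among fibrillar chains, COL5A2, the alpha 2 chain of type V, was at 242, 245 and 251 CPM in DMSO and at 864, 859 and 844 CPM with the drug, a log2 fold change of 1.80 ± 0.027 (adjusted p = 1.27e-44). Its partner COL5A1 was at 37.7, 38 and 38.5 CPM and then at 83.8, 79.4 and 82.7 CPM, a change of 1.11 ± 0.036 (adjusted p = 3.42e-31). Neither gene's groups overlapped. Because COL5A2 rose more, the per-length ratio of COL5A1 to COL5A2 went from 0.103 to 0.0638. The type XI chains, which form fibrils of cartilage and related tissues, rose from lower levels: COL11A1 by 3.09 ± 0.2 (adjusted p = 4.41e-19) and COL11A2 by 3.26 ± 0.096 (adjusted p = 7.98e-33). COL3A1, the chain of the type III fibrils of skin and vessels, went from 0.215, 0.137 and 0.0446 to 1.12, 1.11 and 0.77 CPM, and COL1A1 from 2.87, 3.89 and 4.46 to 6.89, 6.8 and 6.96 CPM, changes of 3.05 ± 0.24 (adjusted p = 3.32e-16) and 0.85 ± 0.08 (adjusted p = 2.53e-13). COL24A1 and COL5A3 rose by 2.53 and 1.75. COL2A1, the cartilage fibril chain, and COL27A1 fell by 1.09 and 0.27. COL1A2 fell by the test on under 30 counts, and its group means spanned 0.0236 to 0.459 CPM over all 14 groups of the experiment.

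The basement membrane chains split by pair. COL4A1 was at 410, 426 and 437 CPM in DMSO and at 186, 177 and 182 CPM with the drug, a change of -1.22 ± 0.031 (adjusted p = 1.06e-35). COL4A2 was at 754, 814 and 814 and 454, 422 and 442 CPM, a change of -0.85 ± 0.033 (adjusted p = 8.3e-28), so that the COL4A1 to COL4A2 ratio per length went from 0.7 to 0.541. In both genes every treated library was below every control. COL4A5, a chain of the network of kidney and skin basement membranes, went the other way, from 9.67, 8.47 and 9.05 to 41.5, 40.4 and 42.4 CPM (2.20 ± 0.054, adjusted p = 3.22e-36), and COL4A6 rose by 1.27 ± 0.13 (adjusted p = 9.57e-12). COL4A3 and COL4A4 rose by 1.00 and 0.56. The COL4A3 call rests on single libraries: it was lost without DMSO control replicate 1 (0.97), DMSO control replicate 2 (0.69) or vemurafenib control replicate 1 (0.78).

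COL13A1, a transmembrane collagen of cell contacts and nerve-muscle junctions, showed the steepest fall of any member. Its level was 7.7, 7.56 and 7.74 CPM in DMSO and 0.187, 0.0289 and 0.181 CPM with vemurafenib, a log2 fold change of -5.79 ± 0.18 (adjusted p = 5.43e-32). COL17A1, a component of the hemidesmosomes that anchor epithelial cells, was at 0.352, 0.523 and 0.547 and 0.553, 0.521 and 0.59 CPM, and its change of 0.19 did not pass the test.

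COL21A1, a fibril-associated chain found in vessel walls, had the steepest rise: from 0.674, 0.605 and 0.547 CPM to 59.1, 59.6 and 58.8 CPM, or 6.62 ± 0.14 (adjusted p = 8.44e-39). COL14A1, which binds fibril surfaces, went from 1.88, 2.13 and 1.73 to 25.2, 24.2 and 24.9 CPM (3.70 ± 0.12, adjusted p = 1.17e-31). COL16A1 and COL9A2 rose by 2.96 ± 0.06 (adjusted p = 1.64e-39) and 2.80 ± 0.061 (adjusted p = 3.96e-38), without overlap between groups. COL9A3, already the highest per length, rose by 1.14 to 115 ± 1.86 RPKM, level with COL5A2 at 115 ± 1.38 RPKM. COL12A1 was at 50.9, 50.9 and 53.8 and 49.6, 47.8 and 51.2 CPM, a difference of -0.07 that did not pass, and COL19A1 fell by 0.48. Of type VI, whose beaded filaments surround cells, COL6A3 fell by -1.67 ± 0.1 (adjusted p = 2.57e-20), while COL6A1 fell by 0.18 and COL6A2 rose by 0.21. COL8A1, a short chain of the endothelial and corneal network, rose by 1.72 and COL7A1, the anchoring fibril chain of skin, by 1.44.

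Summed over all 44 genes, collagen RNA went from 242.8 ± 8.32 RPKM in DMSO to 432.4 ± 6.54 RPKM with the drug (SD, n = 3). The fibrillar sum went from 45.08 to 151.9 RPKM and the fibril-associated sum from 69.09 to 177.3 RPKM, whereas the basement membrane sum went from 70.93 to 39.06 RPKM and the transmembrane sum from 1.374 to 0.1339 RPKM. The heat map of log2 fold changes sets these changes beside those of the other comparisons. The counts of marker genes called with the drug stand beside 35.8% of all genes higher and 30.3% lower. Several are near these shares, such as the 2 of 7 fibroblast and 2 of 6 endothelial markers that were lower. Of the 8 fibroblast markers 7 were tested, with 5 higher and 2 lower. Their sum went from between 26.6 and 28.5 CPM to between 67.5 and 71.0 CPM. DPT, a defining fibroblast gene, had 0 counts in the DMSO controls and 13 with the drug. All 8 melanoma markers were higher, their sum going from between 876 and 953 CPM to between 2170 and 2230 CPM. Endothelial markers (3 higher and 2 lower of 6) went from 9.14 to 9.56 CPM to 19.2 to 20.2 CPM, and blood cell markers (1 and 1 of 3 tested) from 0.342 to 0.486 CPM to 2.26 to 2.95 CPM. Keratinocyte markers stood at 45.6 to 48.4 CPM and 42.7 to 46.1 CPM. The part of these genes in the collagen changes was not tested.

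**Figure D1:**
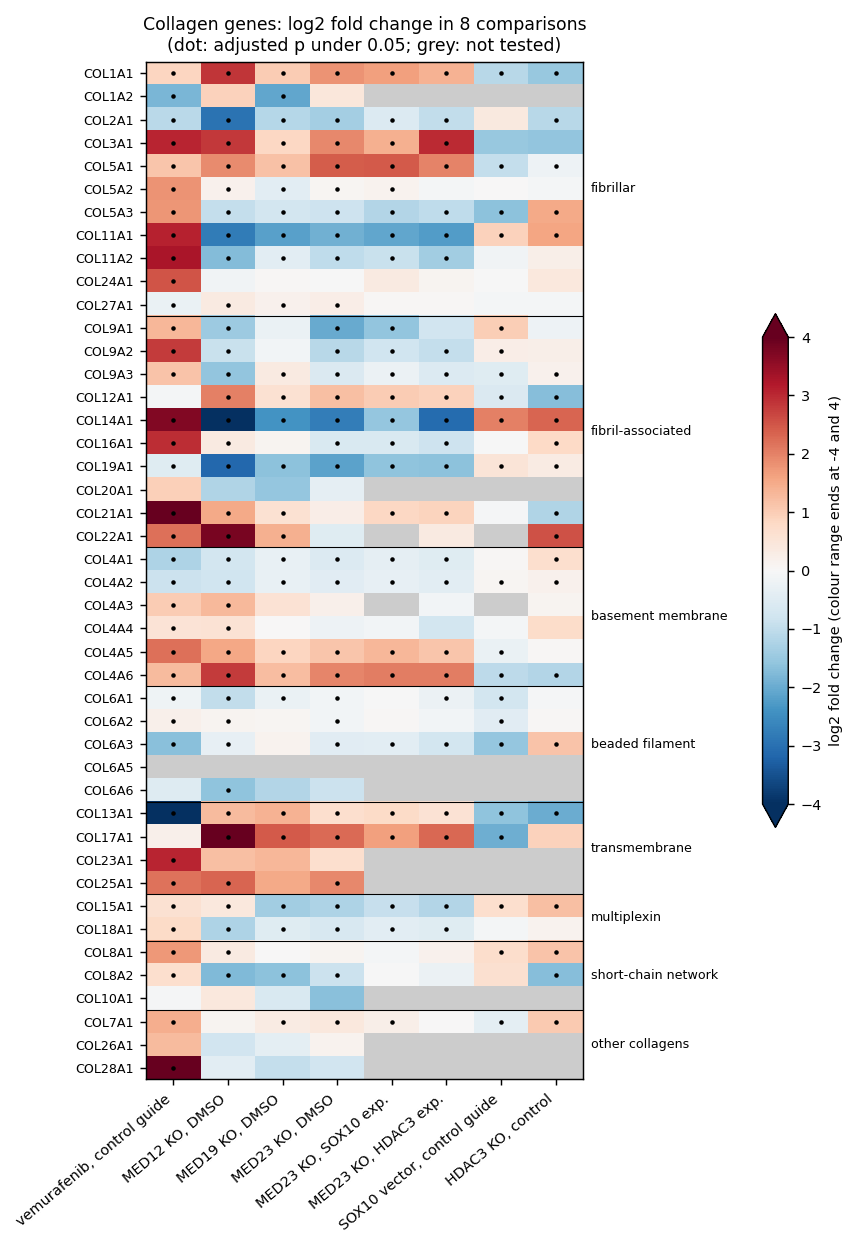
Log2 fold change of the 44 collagen genes (rows, by structural class) in 8 comparisons (columns). Colour gives the log2 fold change and ends at -4 and 4, a dot marks an adjusted p under 0.05, and grey marks genes not tested. COL5A1, COL1A1 and COL17A1 are red in the MED12, MED19 and MED23 columns, COL14A1 and COL19A1 blue, and vemurafenib alone has the most red.

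**Figure D2:**
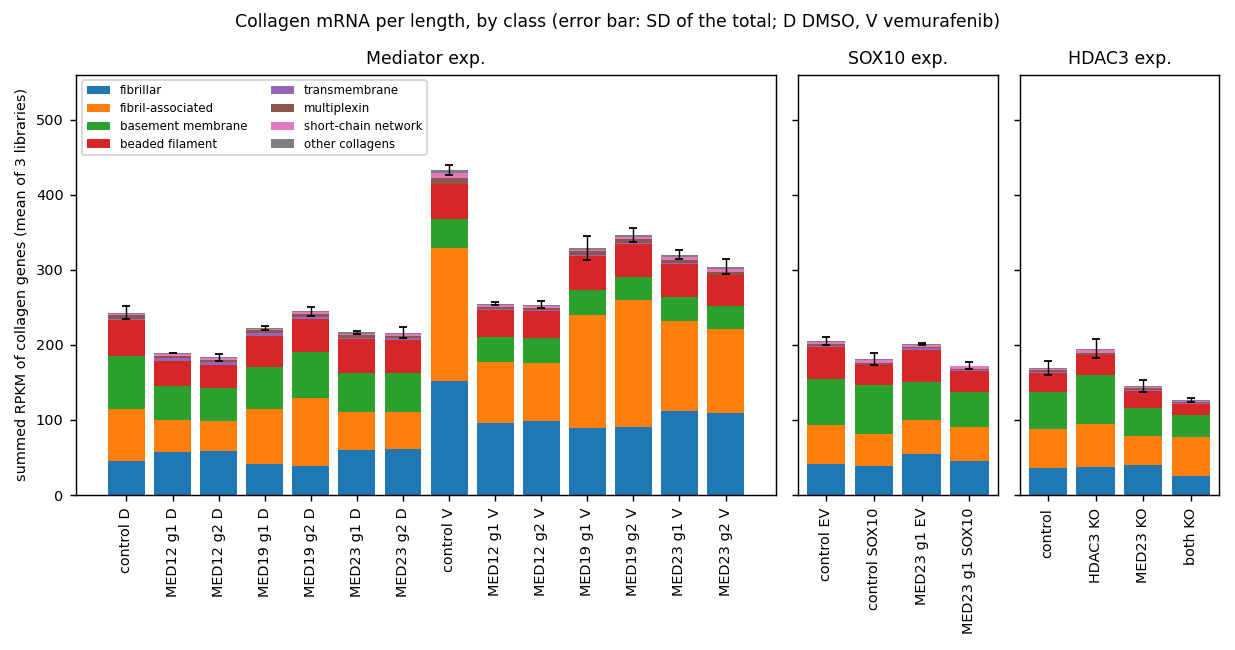
Summed collagen RPKM by structural class (stacked bars) in the 22 groups, as means of 3 libraries; the error bar is the SD of the total. The control-guide total with vemurafenib, 432.4 RPKM, is the highest of the Mediator experiment, and the share of basement membrane chains is smaller there than in DMSO.

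Loss of a Mediator subunit moved individual collagen chains in opposite directions rather than the family as a whole. All values for the 3 subunits are set against the same 3 control-guide DMSO libraries, which the comparison of drug with DMSO used too, and both guides of a subunit were weighted equally. With MED12 guides, 19 of 43 collagen genes were higher and 16 lower, against 27.9% and 27.0% of all genes. MED19 guides gave 13 and 14, against 20.4% and 20.2%, and MED23 guides 12 and 18, against 18.4% and 18.5%. Median log2 fold changes of the tested collagen genes were 0.11, 0 and -0.20, and those of all genes 0.00314, 0.00183 and 0.00606.

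COL5A1 is the clearest fibrillar case. From 37.7, 38 and 38.5 CPM in control cells it reached 136, 131 and 142 and 152, 144 and 142 CPM with MED12 guides 1 and 2, 90.1, 96.9 and 94.8 and 80.4, 74.9 and 80.5 CPM with MED19 guides, and 192, 193 and 201 and 211, 214 and 210 CPM with MED23 guides. All 18 knockout libraries lay above the controls and the levels of the 3 subunits did not overlap, with MED23 highest and MED19 lowest. The log2 fold changes were 1.89 ± 0.033 (adjusted p = 5.58e-42) for MED12, 1.17 ± 0.032 (adjusted p = 7.51e-33) for MED19 and 2.41 ± 0.033 (adjusted p = 5.24e-45) for MED23. Its partner chain COL5A2 moved little by comparison: 0.16, -0.43 and 0.09 in the same order. The per-length ratio of COL5A1 to COL5A2 was accordingly 0.103 in controls, 0.335 and 0.35 with MED12 guides, 0.339 and 0.289 with MED19 guides and 0.493 and 0.539 with MED23 guides. The third type V chain, COL5A3, fell by 0.94, 0.72 and 0.84.

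COL1A1 followed with another order of subunits. Control libraries held 2.87, 3.89 and 4.46 CPM, MED12 guides 27.5, 26.5 and 27.6 and 31.4, 26.7 and 27.9 CPM, MED19 guides 9.26, 9.98 and 8.79 and 6.46, 6.06 and 6.13 CPM, and MED23 guides 12.8, 13.6 and 14 and 13.5, 12.4 and 12.7 CPM. Here MED12 was highest, MED23 next, and no knockout library overlapped the controls. The changes were 2.87 ± 0.069 (adjusted p = 6.14e-36), 1.00 ± 0.071 (adjusted p = 9.5e-17) and 1.79 ± 0.069 (adjusted p = 5.83e-27). COL1A2, which supplies the other chain of type I, changed by 0.91 with MED12 guides and 0.45 with MED23 guides, and neither passed. COL3A1 rose by 2.83 ± 0.22 (adjusted p = 4.4e-16) with MED12 guides and 1.91 ± 0.24 (adjusted p = 3.71e-09) with MED23 guides from 0.215, 0.137 and 0.0446 CPM in controls. With MED19 guides its rise of 0.82 ± 0.29 (adjusted p = 0.0171) came with overlapping groups and depended on single libraries: it was 0.32 without DMSO control replicate 3, 1.24 without DMSO control replicate 1 and 0.68 without MED19 guide 2 replicate 2, and the first and last of these did not pass.

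COL11A1, COL11A2 and COL2A1 fell with each subunit. COL11A1 went from 1.53, 1.41 and 1.66 CPM to 0.166, 0.137 and 0.369 and 0.22, 0.173 and 0.238 CPM with MED12 guides, 0.47, 0.293 and 0.325 and 0.344, 0.391 and 0.201 CPM with MED19 guides and 0.502, 0.444 and 0.498 and 0.301, 0.607 and 0.151 CPM with MED23 guides. Every knockout library was below the controls, with changes of -2.80 ± 0.21 (adjusted p = 1.51e-16), -2.18 ± 0.2 (adjusted p = 7.39e-13) and -1.93 ± 0.2 (adjusted p = 9.94e-12). COL2A1 fell by 2.94, 1.13 and 1.35, and COL11A2 by 1.74, 0.42 and 1.02. COL27A1, another fibrillar chain of cartilage, rose by 0.37, 0.16 and 0.25, and COL24A1 did not pass with any subunit (-0.15, 0.06 and -0.03). Over the class, 5 of 11 fibrillar genes were higher and 4 lower with MED12 guides, 4 and 6 with MED19 guides, and 5 and 4 with MED23 guides.

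Among basement membrane chains the 2 abundant ones fell and the X-linked pair rose. COL4A2 went from 754, 814 and 814 CPM to 466, 468 and 476 and 458, 454 and 437 CPM with MED12 guides, and changed by -0.79 ± 0.028 (adjusted p = 3.62e-29), -0.29 ± 0.028 (adjusted p = 2.39e-12) and -0.45 ± 0.028 (adjusted p = 8.32e-19) with MED12, MED19 and MED23 guides. COL4A1, read from the same stretch, changed by -0.72, -0.29 and -0.55. Neither gene overlapped between knockout and control libraries. COL4A5 rose from 9.67, 8.47 and 9.05 CPM to 25.2, 27.5 and 26.5 and 24.8, 27.4 and 26 CPM with MED12 guides and by 1.54 ± 0.049 (adjusted p = 4.27e-31), 0.87 ± 0.049 (adjusted p = 1.47e-20) and 1.11 ± 0.049 (adjusted p = 7.4e-25) with the 3 subunits. COL4A6 rose more, by 2.81 ± 0.12 (adjusted p = 6.51e-26), 1.23 ± 0.12 (adjusted p = 4.11e-12) and 1.96 ± 0.12 (adjusted p = 2.6e-19). The ratio of COL4A6 to COL4A5 per length went from 0.151 to 0.368 and 0.36 with MED12 guides and to 0.28 and 0.263 with MED23 guides. With MED19 guides it was 0.227 and 0.165, and the libraries of guide 2 (0.155 to 0.181) overlapped the controls (0.147 to 0.159). COL4A3 and COL4A4 rose by 1.31 and 0.59 with MED12 guides and did not pass with the others (0.59 and 0.00, 0.21 and -0.20).

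The transmembrane chains that could be measured rose in each knockout. COL17A1 went from 0.352, 0.523 and 0.547 CPM to 8.07, 8.35 and 8.35 and 9.34, 9.12 and 8.47 CPM with MED12 guides, 4.01, 4.16 and 3.93 and 1.83, 1.76 and 1.8 CPM with MED19 guides, and 2.59, 2.07 and 2.08 and 2.53, 2.78 and 2.31 CPM with MED23 guides. The groups did not overlap the controls, but the 2 MED19 guides differed, with changes of 3.04 and 1.88 taken alone. The changes for the subunits were 4.14 ± 0.12 (adjusted p = 1.56e-32), 2.46 ± 0.12 (adjusted p = 3.29e-22) and 2.28 ± 0.12 (adjusted p = 3.59e-21). COL13A1 was at 7.7, 7.56 and 7.74 CPM in controls and between 16.9 and 19.7 CPM with MED12 guides, 18.1 and 22.3 CPM with MED19 guides, and 11.0 and 12.7 CPM with MED23 guides. It changed by 1.26 ± 0.086 (adjusted p = 8.06e-18), 1.38 ± 0.087 (adjusted p = 1.02e-18) and 0.67 ± 0.085 (adjusted p = 6.08e-09). COL25A1, an amyloid-binding transmembrane collagen, was called higher with MED12 and MED23 guides on under 30 counts in the controls, and COL23A1 did not pass with any subunit. The transmembrane sum went from 1.374 RPKM to 4.363 and 4.335 with MED12 guides, 4.241 and 3.407 with MED19 guides and 2.41 and 2.432 with MED23 guides.

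**Figure D3:**
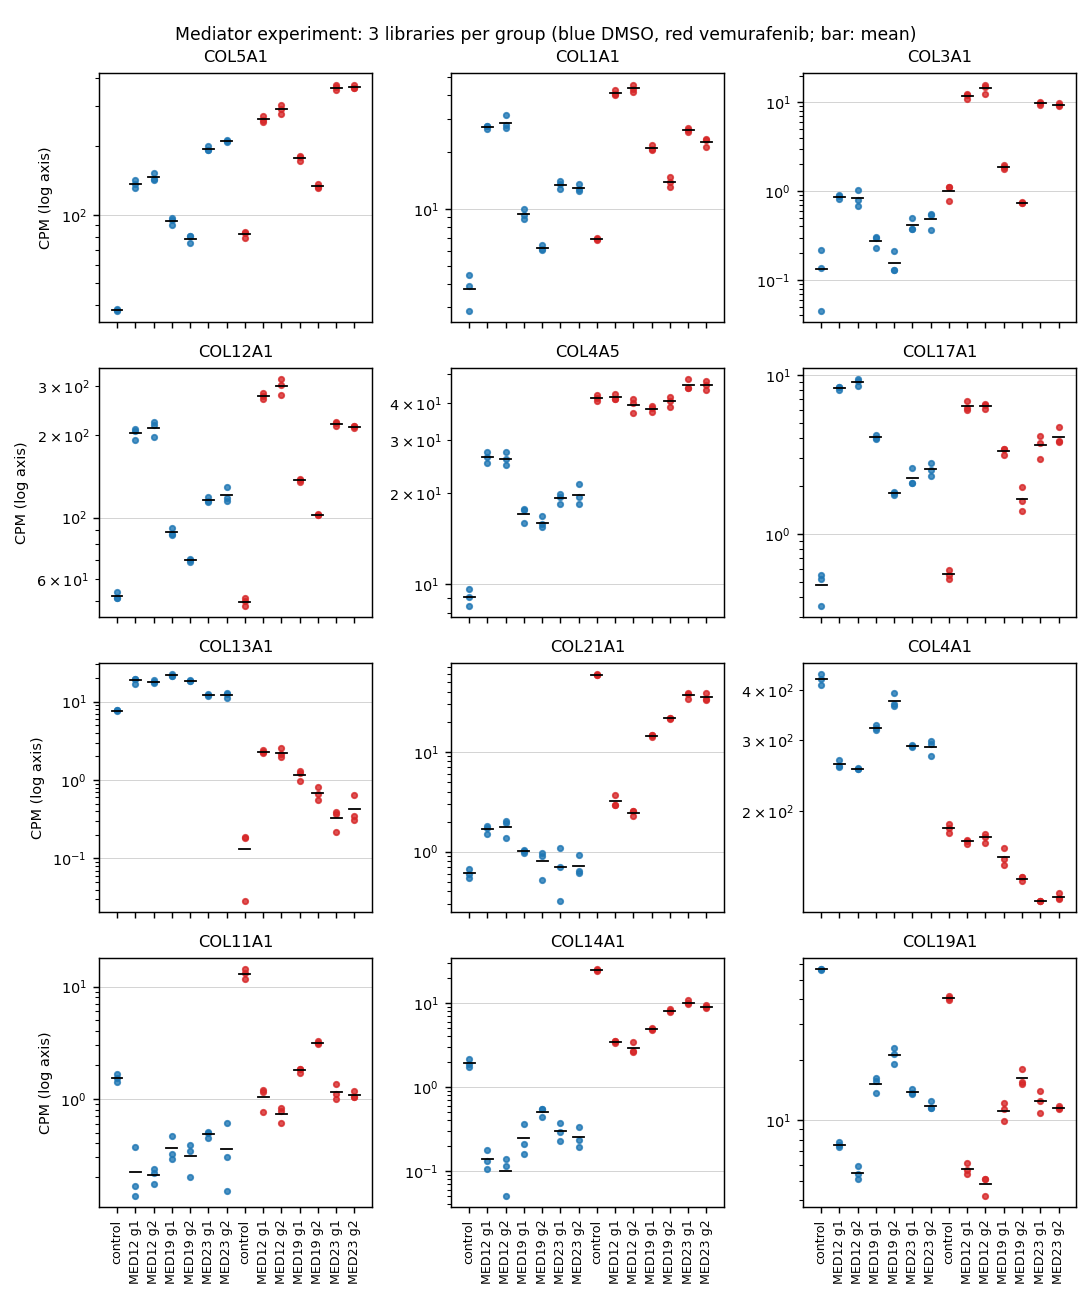
Level (CPM, log axis) of 12 collagen genes in the 14 groups of the Mediator experiment. Each point is a library (blue DMSO, red vemurafenib), and the bar is the mean of 3. COL5A1, COL1A1 and COL17A1 are higher in every knockout group than in the control of the same treatment, and COL14A1 and COL19A1 lower. Among the drug-treated groups, COL21A1 is highest in control-guide cells and lowest with MED12 guides.

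Fibril-associated chains were divided. COL19A1, a rare chain that stood among the 10 highest per length here, went from 56.4, 56.2 and 55.9 CPM to 7.54, 7.35 and 7.77 and 5.09, 5.4 and 5.92 CPM with MED12 guides, 16.2, 15.7 and 13.7 and 19, 21.4 and 22.9 CPM with MED19 guides and 13.7, 14.3 and 13.5 and 11.5, 12.4 and 11.5 CPM with MED23 guides. No knockout library reached the controls, and the changes were -3.13 ± 0.061 (adjusted p = 7.22e-40), -1.65 ± 0.058 (adjusted p = 2.2e-28) and -2.14 ± 0.059 (adjusted p = 4.84e-33). COL14A1 changed by -3.98 ± 0.16 (adjusted p = 2.23e-27), -2.40 ± 0.13 (adjusted p = 1.13e-20) and -2.78 ± 0.14 (adjusted p = 5.97e-23) from 1.88, 2.13 and 1.73 CPM. COL12A1, which binds type I fibrils in tendon and stroma, went from 50.9, 50.9 and 53.8 CPM to 210, 192 and 207 and 218, 196 and 223 CPM with MED12 guides and 115, 114 and 119 and 129, 115 and 118 CPM with MED23 guides. Its changes were 2.00 ± 0.038 (adjusted p = 2.45e-40), 0.60 ± 0.036 (adjusted p = 1.89e-19) and 1.19 ± 0.037 (adjusted p = 5.83e-31), all without overlap. Over the class, 4 of 10 genes were higher and 5 lower with MED12 guides, 4 and 2 with MED19 guides, and 1 and 6 with MED23 guides.

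Subunits differed in other chains of this class. COL9A3 fell by 1.57 with MED12 guides and by 0.57 with MED23 guides and rose by 0.35 with MED19 guides. COL22A1, a chain of muscle-tendon junctions, rose by 3.80 ± 0.34 (adjusted p = 9.92e-14) with MED12 guides and 1.42 ± 0.35 (adjusted p = 0.000822) with MED19 guides from 0.215, 0.199 and 0.0892 CPM in controls, and its change of -0.47 with MED23 guides did not pass. COL16A1 rose by 0.36 with MED12 guides, fell by 0.60 with MED23 guides and did not pass with MED19 guides (0.11). COL21A1 rose by 1.51 with MED12 guides and by 0.60 with MED19 guides, the latter lost without DMSO control replicate 3 (0.52), and did not pass with MED23 guides (0.26).

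In the remaining classes, type VI chains fell or stayed close to control. COL6A1 went from 177, 191 and 186 CPM to 96.6, 97.1 and 97.3 and 90.2, 96.7 and 87.2 CPM with MED12 guides (-0.97 ± 0.033, adjusted p = 1.44e-29) and fell by 0.27 with MED19 guides, and the ratio of COL6A1 to COL6A2 per length went from 2.68 to 1.26 and 1.28 with MED12 guides. COL6A2 was called at 0.11 with MED12 guides and at -0.12 with MED23 guides, and COL6A1 at -0.10 with MED23 guides, with an overlap of groups in the first and last. Each of these small calls was lost without a single library: COL6A2 with MED12 without DMSO control replicate 1 (0.08), MED12 guide 1 replicate 2 (0.09) or guide 2 replicate 2 (0.07), COL6A2 with MED23 without DMSO control replicate 2 (-0.11) or 3 (-0.09), MED23 guide 1 replicate 2 (-0.10) or guide 2 replicate 1 (-0.10), and COL6A1 with MED23 without DMSO control replicate 2 (-0.08) or 3 (-0.09) or MED23 guide 2 replicate 1 (-0.08). COL6A3 fell by 0.32 and 0.44 with MED12 and MED23 guides and did not pass with MED19 guides (0.14).

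COL15A1, a multiplexin next to basement membranes, rose by 0.43 with MED12 guides and fell by 1.40 and 1.22 with MED19 and MED23 guides. COL18A1, the other multiplexin and the source of endostatin, fell by 1.24, 0.49 and 0.65. The short chain COL8A2 fell by 1.76, 1.64 and 0.85, and COL8A1 rose by 0.37 with MED12 guides and did not pass with the others (0.01 and 0.11). COL7A1 rose by 0.32 and 0.43 with MED19 and MED23 guides, and its change of 0.11 with MED12 guides did not pass. Summed collagen RNA was 189.4 and 183.7 RPKM with MED12 guides, 223 and 244.6 RPKM with MED19 guides and 216.6 and 216.1 RPKM with MED23 guides, beside 242.8 RPKM in controls.

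Tested against each other in DMSO, MED12 and MED23 knockout cells differed in 32 of the 43 collagen genes. In MED12 knockout 19 were higher and 13 lower, against 25.9% and 24.9% of all genes. COL22A1 (4.27), COL17A1 (1.86), COL15A1 (1.66) and COL1A1 (1.09) were higher in MED12 knockout, and COL2A1 (-1.59), COL14A1 (-1.20), COL9A3 (-1.0), COL6A1 (-0.87) and COL5A1 (-0.53) lower. Differences in COL4A1 (-0.16), COL4A2 (-0.34), COL5A2 (0.07) and COL6A2 (0.22) passed but were smaller, and COL6A3 (0.11) and COL1A2 (0.45) did not pass. Between MED19 and MED23 knockout, 14 were higher and 11 lower in MED19 knockout, against 17.5% and 16.1%. COL5A1 (-1.24), COL3A1 (-1.09) and COL1A1 (-0.79) were lower in MED19 knockout, while COL22A1 (1.89), COL9A2 (0.99), COL9A3 (0.92) and COL6A3 (0.58) were higher. COL5A2 (-0.52) and COL6A1 (-0.17) were lower and COL4A1 (0.26), COL4A2 (0.16) and COL6A2 (0.19) higher.

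The counts of marker genes called stand beside these shares of all genes higher and lower. They were 27.9% and 27.0% with MED12, 20.4% and 20.2% with MED19, and 18.4% and 18.5% with MED23 guides. Fibroblast markers summed to between 68.5 and 72.1 CPM with MED12 guides, 27.6 and 35.3 CPM with MED19 guides and 37.6 and 41.5 CPM with MED23 guides, beside 26.6 to 28.5 CPM in controls. The libraries of MED19 guide 2 (27.6 to 30.4 CPM) overlapped the controls. Of 7 tested, 6 were higher and 0 lower with MED12 guides, 3 and 2 with MED19 guides, and 4 and 2 with MED23 guides. DPT had 0 counts in the MED12 and MED19 DMSO groups and 4 counts in all with MED23 guides, and FAP, an activated fibroblast protease, was at 0.562 ± 0.0726 CPM in controls and 6.36 ± 0.187 and 7.14 ± 0.211 CPM with MED12 guides. The sum of melanoma markers went the other way, from 876 to 953 CPM in controls. It was 169 to 219 CPM with MED12 guides, 487 to 649 CPM with MED19 guides and 366 to 420 CPM with MED23 guides. Of 8 tested, 0 were higher and 6 lower with MED12 guides, 0 and 5 with MED19 guides, and 1 and 5 with MED23 guides. Their part in the collagen differences was not tested.

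Under vemurafenib the same knockouts were compared with drug-treated control-guide cells, which these 3 comparisons share. With MED12 guides 11 of 43 collagen genes were higher and 24 lower, against 32.5% and 29.6% of all genes. MED19 guides gave 8 and 21, against 23.1% and 20.7%, and MED23 guides 10 and 23, against 24.6% and 22.7%. The medians were -0.39, -0.33 and -0.40. Fibril-associated genes were higher and lower in 1 and 8 of 10 with MED12 guides, 1 and 7 with MED19 guides, and 1 and 8 with MED23 guides, and fibrillar genes in 4 and 7, 3 and 6, and 4 and 6 of 11. Summed collagen RNA was 254.8 and 253.6 RPKM with MED12 guides, 329.4 and 346.4 with MED19 guides and 319.9 and 303.8 with MED23 guides, beside 432.4 RPKM in drug-treated controls.

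Marker counts under drug stand beside the shares of all genes higher and lower. These were 32.5% and 29.6% with MED12, 23.1% and 20.7% with MED19, and 24.6% and 22.7% with MED23 guides. Fibroblast markers summed to 67.5 to 71.0 CPM in drug-treated controls, 167 to 182 CPM with MED12 guides, 67.3 to 90.9 CPM with MED19 guides and 106 to 112 CPM with MED23 guides. Of 7 tested, 5 were higher and 1 lower with MED12 guides, 4 and 1 with MED19 guides, and 4 and 0 with MED23 guides. Melanoma markers summed to 2170 to 2230 CPM in drug-treated controls, 161 to 201 CPM with MED12 guides, 577 to 893 CPM with MED19 guides and 480 to 597 CPM with MED23 guides, with 8, 7 and 6 of 8 lower. Endothelial markers summed to 19.2 to 20.2 CPM in drug-treated controls and to at most 11.1 CPM in the knockouts. The members did not all follow the sum. Of 6 tested, 4 were higher and 2 lower with MED12 guides, 2 and 3 with MED19 guides, and 2 and 3 with MED23 guides. DPT held 13 counts in drug-treated controls and at most 3 in a knockout group. Their part in the collagen differences was not tested.

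COL21A1, which had risen most with the drug, separated the subunits. Drug-treated controls held 59.1, 59.6 and 58.8 CPM, MED12 guides 3.71, 2.9 and 2.96 and 2.55, 2.26 and 2.57 CPM, MED19 guides 14.6, 14.6 and 14 and 21.3, 21.9 and 22 CPM, and MED23 guides 38.8, 33.4 and 37.9 and 38.4, 33.3 and 34.1 CPM. The groups were fully separate from the control and by subunit, with changes of -4.41 ± 0.087 (adjusted p = 5.69e-40), -1.74 ± 0.079 (adjusted p = 3.02e-24) and -0.72 ± 0.08 (adjusted p = 8.47e-11). COL13A1, which the drug had lowered to 0.187, 0.0289 and 0.181 CPM, was at 2.26, 2.19 and 2.38 and 1.94, 2.56 and 2.13 CPM with MED12 guides, changes of 4.02 ± 0.19 (adjusted p = 5.35e-24) for MED12, 2.65 ± 0.23 (adjusted p = 4.72e-14) for MED19 and 1.43 ± 0.28 (adjusted p = 3.07e-05) for MED23.

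COL3A1 reached CPM levels with the drug that it had in no DMSO group: 12.4, 10.9 and 12.1 and 15.9, 12.6 and 14.8 with MED12 guides and 9.88, 9.33 and 10.1 and 9.73, 9.01 and 9.46 with MED23 guides, beside 1.12, 1.11 and 0.77 in drug-treated controls. The changes were 3.72 ± 0.14 (adjusted p = 9.41e-29) and 3.27 ± 0.14 (adjusted p = 4.15e-26), and with MED19 guides the change of 0.24 did not pass. COL1A1 rose by 2.62 ± 0.066 (adjusted p = 2.01e-35), 1.32 ± 0.065 (adjusted p = 8.84e-23) and 1.83 ± 0.066 (adjusted p = 1.47e-28), and COL5A1 by 1.76 ± 0.032 (adjusted p = 1.39e-41), 0.91 ± 0.031 (adjusted p = 1.46e-29) and 2.15 ± 0.032 (adjusted p = 3.39e-44). COL5A2 fell by 0.98, 0.97 and 0.86, COL5A3 by 1.67, 1.15 and 1.70, COL11A1 by 3.92, 2.45 and 3.55 and COL11A2 by 2.78, 0.88 and 1.58. COL17A1 rose by 3.51 ± 0.12 (adjusted p = 1.2e-29), 2.09 ± 0.13 (adjusted p = 2.04e-19) and 2.78 ± 0.13 (adjusted p = 1.22e-24).

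COL12A1 rose by 2.54, 1.26 and 2.13 under drug, while COL14A1 fell by 2.97, 1.98 and 1.38, COL19A1 by 2.95, 1.60 and 1.75 and COL16A1 by 1.46, 0.93 and 1.80. COL15A1 fell by 0.86, 1.47 and 3.06, and COL8A1 by 1.40, 1.47 and 0.95. The abundant type IV chains moved less: COL4A1 fell by 0.09, 0.33 and 0.58 and COL4A2 by 0.39, 0.28 and 0.40. This did not hold for the whole class, as 1 of 6 basement membrane genes was at least 2-fold higher with MED23 guides. The per-length ratio of COL4A6 to COL4A5 was 0.079 in drug-treated controls. It was 0.133 and 0.144 with MED12 guides, 0.088 and 0.0796 with MED19 guides and 0.192 and 0.197 with MED23 guides. The COL4A1 call with MED12 guides was lost without drug-treated control replicate 1 (-0.07). COL4A5, at 41.5, 40.4 and 42.4 CPM in drug-treated controls, did not pass with MED12 (-0.03) or MED19 guides (-0.08) and rose by 0.14 with MED23 guides. COL6A3 fell by 0.32 with MED12 guides, a call lost without drug-treated control replicate 1 (-0.22), and by 0.74 with MED23 guides.

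COL6A1 fell by 0.59 with MED12 guides under drug. Apart from the fall of COL6A3 with MED23 guides given above, the other type VI calls were small and rested on single libraries. With MED19 guides COL6A1 (-0.09) was lost without drug-treated control replicate 1 (-0.07) or 3 (-0.09), guide 1 replicate 3 (-0.06) or guide 2 replicate 1 (-0.09) or 2 (-0.08). COL6A2 (0.12) was lost there without drug-treated control replicate 2 or 3 (0.11 each) or guide 1 replicate 2 (0.09), and COL6A3 (0.25) without control replicate 2 (0.22) or 3 (0.20), guide 1 replicate 1 (0.22) or guide 2 replicate 1 or 2 (0.21 each). With MED23 guides COL6A1 (-0.08) was lost without drug-treated control replicate 1 (-0.06) or 3 (-0.08) or without replicate 2 (-0.08) or 3 (-0.07) of either guide. COL6A2 did not pass with MED12 (0.06) or MED23 guides (-0.06). COL1A2 was at 0.0255, 0.116 and 0.0393 CPM in drug-treated controls, under 30 counts in all, and is given no fold.

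The interaction term gives the knockout's log2 change under drug minus that in DMSO. It passed in the positive and negative direction for 11 and 19 collagen genes with MED12 guides (24.9% and 24.2% of all genes), 8 and 15 with MED19 guides (17.4% and 15.2%), and 11 and 16 with MED23 guides (18.5% and 16.2%). Among genes with at least 30 counts in each group, COL21A1 had the largest terms with MED12 and MED19 guides, -5.93 ± 0.17 and -2.34 ± 0.19, and COL2A1 was positive with each subunit (2.60, 2.02 and 1.26). COL8A1 was negative with each (-1.78, -1.49 and -1.05), as were COL16A1 (-1.82, -1.05 and -1.19), COL5A2 (-1.14, -0.54 and -0.95) and COL4A5 (-1.57, -0.95 and -0.97). For COL5A1 the terms were small beside the changes themselves: -0.13 with MED12 guides, lost without drug-treated control replicate 1 (-0.11), and -0.26 with each of the others. COL1A1 gave -0.25 with MED12 guides, which became -0.12 without DMSO control replicate 1 and did not pass, and -0.40 without replicate 3. With MED19 guides it gave 0.32, or 0.17 without DMSO control replicate 3, which did not pass, and with MED23 guides 0.04, which did not pass. COL4A1, COL4A2 and COL6A1 gave 0.62, 0.39 and 0.38 with MED12 guides.

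With the SOX10 construct, more collagen genes were lower than higher in control-guide cells, where the gain in SOX10 RNA was smaller than in MED23 knockout cells. Of 33 tested, 8 were higher and 13 lower, against 11.6% and 11.0% of all genes, with a median of -0.09 beside -0.000864 for all genes. COL5A1 was at 32.2, 29.6 and 28.7 CPM with empty vector and 15.7, 15.2 and 15.8 CPM with SOX10, a change of -0.95 ± 0.055 (adjusted p = 2.09e-14). COL1A1 was at 3.58, 4.18 and 3.78 and 1.87, 1.67 and 1.73 CPM (-1.12 ± 0.13, adjusted p = 5.81e-08), and COL5A3 at 17.8, 18.2 and 16.2 and 5.68, 5.29 and 5.81 CPM (-1.63 ± 0.076, adjusted p = 1.67e-16). In each of these the SOX10 libraries lay below every empty-vector library. COL5A2 changed by 0.02 and did not pass, and the ratio of COL5A1 to COL5A2 per length went from 0.0873 to 0.0447. COL11A1 rose by 0.92 ± 0.18 (adjusted p = 0.000196).

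COL13A1 went from 9.81, 8.41 and 9.03 CPM to 2.86, 3.62 and 2.52 CPM, a change of -1.61 ± 0.11 (adjusted p = 8.85e-13), and both tested transmembrane genes were lower, COL17A1 with under 30 counts over the SOX10 libraries. All 3 tested type VI chains fell, COL6A1 from 174, 171 and 162 to 101, 99.8 and 104 CPM (-0.73 ± 0.033, adjusted p = 8.9e-17), COL6A2 by 0.44 and COL6A3 from 8.21, 7.4 and 8 to 2.79, 3.38 and 2.04 CPM (-1.54 ± 0.12, adjusted p = 1.95e-11). The type VI sum went from 42.25 to 26.71 RPKM. COL4A6 fell by 1.05 and COL12A1 by 0.59. COL14A1 rose the most, from 1.64, 1.43 and 1.62 to 5.97, 6.55 and 6.43 CPM (2.01 ± 0.12, adjusted p = 1.16e-13), and COL8A1, COL15A1 and COL19A1 rose by 0.69, 0.66 and 0.53. COL4A1 changed by 0.06 and did not pass, and the call of COL4A2 at 0.09 was lost without empty-vector control replicate 2 (0.09) or 3 (0.08) or SOX10 control replicate 3 (0.06).

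With MED23 guide 1 and empty vector, 11 of 33 collagen genes were higher and 15 lower than with the GFP guide, against 21.2% and 22.3% of all genes. COL5A1 rose to 167, 164 and 161 CPM (2.44 ± 0.042, adjusted p = 1.32e-27) and COL1A1 to 12.2, 12.2 and 11.3 CPM (1.63 ± 0.09, adjusted p = 2.57e-15). COL4A1 (-0.37), COL4A2 (-0.33) and COL6A3 (-0.41) were lower, COL5A2 (0.13) was higher, and COL6A1 (-0.01) and COL6A2 (0.05) did not pass. Adding SOX10 to MED23 knockout cells raised 10 and lowered 15, against 21.2% and 20.7%, and shares the MED23 empty-vector libraries with the previous comparison, so the 2 cannot be read as separate evidence. It brought COL5A1 to 52, 49.7 and 47.9 CPM (-1.72 ± 0.039, adjusted p = 2.25e-24), COL1A1 to 4.65, 4.82 and 4.54 CPM (-1.35 ± 0.086, adjusted p = 7.19e-14), COL4A6 from 5.18, 4.47 and 4.14 to 1.31, 1.07 and 1.36 CPM (-1.88 ± 0.15, adjusted p = 2.54e-11) and COL6A3 by -1.34. COL14A1 rose from 0.609, 0.48 and 0.495 to 1.92, 2.2 and 2.15 CPM (1.98 ± 0.2, adjusted p = 1.55e-09) and COL19A1 from 13.9, 13.3 and 13.9 to 35.6, 31.7 and 33.4 CPM (1.29 ± 0.057, adjusted p = 1.29e-17). None of these groups overlapped. COL12A1, also raised by MED23 loss, was at 104, 97.3 and 98.8 CPM without and 122, 106 and 109 CPM with SOX10, a rise of 0.16, or 0.10 without MED23 SOX10 replicate 1. COL6A1 (-0.68), COL6A2 (-0.50) and COL4A1 (-0.17) were lower with SOX10, and COL4A2 (0.03) and COL5A2 (0.04) did not pass.

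Set directly against control cells with empty vector, MED23 knockout cells with SOX10 had 7 of 33 collagen genes higher and 16 lower, against 16.6% and 16.9% of all genes. COL5A1 remained 0.73 ± 0.046 (adjusted p = 1.13e-13) above control and COL12A1 1.16 above. COL5A3 (-2.20), COL6A3 (-1.74), COL6A1 (-0.69), COL4A1 (-0.55), COL6A2 (-0.44) and COL4A2 (-0.30) were lower and COL5A2 (0.18) higher. The calls of COL1A1 (0.28), COL14A1 (0.42) and COL4A4 (-0.74) were lost without single libraries: each without empty-vector control replicate 1 (0.23, 0.45 and -0.75) or 3 (0.27, 0.44 and -0.72) and without MED23 SOX10 replicate 2 (0.26, 0.37 and -0.78), COL1A1 and COL4A4 also without MED23 SOX10 replicate 1 (0.28 and -0.65), COL1A1 and COL14A1 without its replicate 3 (0.30 and 0.40), and COL14A1 and COL4A4 without empty-vector control replicate 2 (0.36 and -0.75). The interaction of SOX10 and MED23 knockout passed for 8 genes upward and 5 downward, against 7.64% and 7.04%. It was -0.77 ± 0.068 for COL5A1, whose fall with SOX10 was thus larger in MED23 knockout cells, -0.73 for COL4A5, 0.76 for COL19A1 and 0.75 for COL12A1, and did not pass for COL1A1 (-0.23) or COL14A1 (-0.03). The gain in SOX10 RNA was itself larger in MED23 knockout cells than in control-guide cells, as given above. The part of that difference in the interaction was not tested. Melanoma markers summed to between 642 and 657 CPM with empty vector, 802 and 834 CPM with SOX10, 330 and 346 CPM in MED23 knockout and 564 and 577 CPM in MED23 knockout with SOX10. Of 7 tested, 5 were higher and 0 lower with SOX10 in control-guide cells, and 2 and 4 with MED23 knockout and empty vector. SOX10 in MED23 knockout cells gave 4 and 2. The shares of all genes higher and lower were, in this order, 11.6% and 11.0%, 21.2% and 22.3%, and 21.2% and 20.7%. The part of these markers was not tested. The corresponding sums of fibroblast markers were 23.4 to 25.4, 24.5 to 25.1, 35.7 to 37.1 and 33.5 to 34.4 CPM, with DPT at 0 counts.

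Knockout of HDAC3 gave 13 higher and 8 lower collagen genes of 35 tested, against 21.2% and 20.9% of all genes, with a median of 0.18 beside -0.000129 for all genes. Control columns of this table carry the name GFP and were assigned to the labelled control samples by elimination. Among basement membrane chains, COL4A1 rose from 330, 294 and 293 to 522, 476 and 462 CPM (0.67 ± 0.053, adjusted p = 5.85e-10). The other gene of the shared stretch, COL4A2, was at 570, 520 and 519 and 655, 601 and 564 CPM, and its call at 0.18 was lost without control replicate 2 (0.15) or 3 (0.15) or HDAC3 knockout replicate 1 (0.12). The ratio of COL4A1 to COL4A2 per length was 0.739 to 0.758 in control libraries and 1.04 to 1.07 in HDAC3 knockout libraries, without overlap, and 0.709 and 0.729 on average in MED23 and double knockout. COL4A6 fell by 1.16. COL5A2 did not pass (-0.08).

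COL1A1 was at 1.81, 1.8 and 1.91 CPM in controls and 0.764, 0.536 and 0.642 CPM in HDAC3 knockout (-1.51 ± 0.16, adjusted p = 7.94e-08), and COL12A1 at 62.1, 57.1 and 59.4 and 21.8, 14.1 and 18.9 CPM (-1.70 ± 0.096, adjusted p = 2.01e-12). COL13A1 went from 6.52, 5.82 and 6.02 to 1.72, 1.53 and 1.43 CPM (-1.98 ± 0.12, adjusted p = 5.16e-12). COL8A2 fell by 1.69, COL21A1 by 1.21 and COL2A1 by 1.11. COL14A1 went from 1.73, 2.04 and 1.96 to 10.3, 9.72 and 8.99 CPM (2.34 ± 0.12, adjusted p = 2.23e-13), COL11A1 from 1.35, 1.22 and 1.51 to 4.65, 4.01 and 3.53 CPM (1.58 ± 0.16, adjusted p = 3.55e-08), COL5A3 from 13.2, 11.4 and 11.3 to 37.5, 34.3 and 30.3 CPM (1.51 ± 0.085, adjusted p = 1.83e-12) and COL6A3 from 7.82, 5.87 and 6.62 to 15.3, 15.5 and 13.6 CPM (1.13 ± 0.1, adjusted p = 4.11e-09). COL15A1 rose by 1.20 and COL8A1 by 1.13. In each of these genes the 2 groups did not overlap. COL5A1 changed little, from 27.6, 24.6 and 26.3 to 26.2, 22.7 and 19.5 CPM with overlapping groups: its call at -0.20 was lost without control replicate 1 (-0.16) or 3 (-0.20) or HDAC3 knockout replicate 2 (-0.20) or 3 (-0.10), and was -0.31 without HDAC3 knockout replicate 1.

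In MED23 knockout cells of this experiment 9 of 35 collagen genes were higher and 15 lower than in controls, against 12.3% and 12.0% of all genes. COL4A1 (-0.49), COL4A2 (-0.41) and COL6A3 (-0.73) were lower, and COL5A2 (-0.08) and COL6A2 (-0.11) did not pass. The call of COL6A1 (-0.22) was lost without control replicate 1 or MED23 knockout replicate 3 (-0.18 each). Knockout of HDAC3 on top of MED23 gave 10 higher and 17 lower, against 19.1% and 18.9%, in a comparison that shares the MED23 knockout libraries. COL5A1 went from 113, 100 and 98.9 to 48.9, 46.1 and 47 CPM (-1.14 ± 0.075, adjusted p = 5.79e-11), COL1A1 from 4.84, 4.84 and 4.7 to 1.05, 0.895 and 0.823 CPM (-2.38 ± 0.15, adjusted p = 1.65e-11) and COL12A1 from 115, 111 and 113 to 56.8, 55.4 and 66.1 CPM. COL4A6 and COL17A1 fell by 1.48 and 1.39, COL4A5 by 1.28 and COL8A2 by 1.88. COL5A2 fell by 0.65, COL6A2 by 0.64, COL6A1 by 0.60, COL4A2 by 0.31 and COL4A1 by 0.27. COL11A1 went from 0.366, 0.224 and 0.25 to 1.42, 1.67 and 1.56 CPM (2.42 ± 0.21, adjusted p = 5.3e-09) and COL14A1 from 0.214, 0.224 and 0.237 to 0.949, 1.14 and 0.943 CPM (2.17 ± 0.19, adjusted p = 7.64e-09). COL5A1, COL1A1, COL12A1, COL4A5, COL4A6 and COL17A1, higher in MED23 knockout than in control, were thus lower in the double knockout than in MED23 knockout, and COL11A1 and COL14A1 were higher. COL6A3 changed by 0.27 and did not pass. Here replicate numbers were taken to pair the libraries, a hint from the data that the labels do not state. With replicate as a block in the same test COL6A3 passed (0.28, adjusted p = 0.0271).

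Against control cells the double knockout had 3 collagen genes higher and 17 lower of 35, against 18.2% and 18.4% of all genes. COL5A1 was 0.85 ± 0.077 (adjusted p = 9.75e-09) above control, COL7A1 was 0.59 above, and COL22A1 was called higher on under 30 counts in controls. Lower were COL8A2 (-2.11), COL15A1 (-1.08), COL1A1 (-1.0), COL14A1 (-0.92), COL6A1 (-0.83), COL4A1 (-0.76), COL6A2 (-0.75), COL4A2 (-0.73) and COL5A2 (-0.72). All 3 type VI chains tested were lower, though COL6A1 and COL6A2 did not pass in HDAC3 knockout alone (-0.06 and 0.04). Summed collagen RNA was 169.1 ± 9.64 RPKM in control, 195 ± 12.9 in HDAC3 knockout, 144.8 ± 8.05 in MED23 knockout and 126.6 ± 2.92 in double knockout cells (SD, n = 3), with basement membrane chains at 49.19, 65.15, 37.11 and 29.68 RPKM.

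The interaction of HDAC3 and MED23 knockout passed upward for 7 genes and downward for 15, against 10.0% and 10.5%. COL17A1 (-2.31), COL8A1 (-1.79), COL4A5 (-1.32), COL4A1 (-0.94), COL5A1 (-0.94), COL1A1 (-0.87), COL6A3 (-0.86), COL6A2 (-0.68), COL5A2 (-0.56), COL6A1 (-0.55) and COL4A2 (-0.49) were negative, COL2A1 (1.75) and COL11A2 (1.05) positive. COL15A1 gave -1.09, or -0.90 without MED23 knockout replicate 2, which did not pass (adjusted p = 0.0609). COL11A1 gave 0.84, which did not pass without control replicate 3 (0.76), double knockout replicate 2 (0.78), HDAC3 knockout replicate 2 (0.83) or 3 (0.75), or MED23 knockout replicate 2 (0.72) or 3 (0.76). Melanoma markers summed to between 579 and 592 CPM in control, 1030 and 1060 in HDAC3 knockout, 310 and 326 in MED23 knockout and 513 and 572 in double knockout cells. Fibroblast markers summed to 24.2 to 26.6, 39.3 to 42.7, 34.7 to 36.9 and 45.4 to 49.5 CPM, with DPT at 0 counts and FAP at 0.489 ± 0.0333 CPM in control and 9.6 ± 1.2 CPM in HDAC3 knockout cells. Endothelial markers summed to 9 to 10.4, 25.8 to 29.6, 7.01 to 7.87 and 20.2 to 21.5 CPM in the same order. The part of these lists was not tested.

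**Figure D4:**
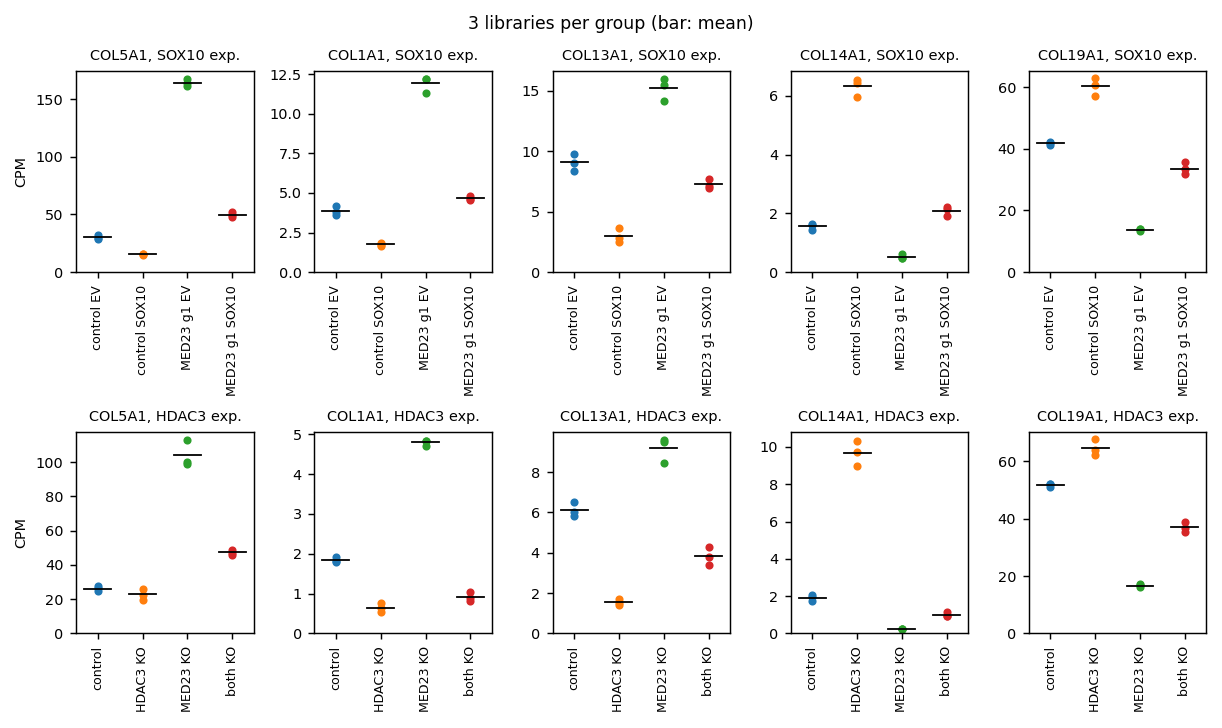
Level (CPM, linear axis from 0) of COL5A1, COL1A1, COL13A1, COL14A1 and COL19A1 in the 4 groups of the SOX10 experiment and the 4 of the HDAC3 experiment; points are libraries and bars means of 3. COL5A1 is highest in MED23 knockout cells of both experiments and lower when SOX10 is added or HDAC3 is also knocked out, and COL14A1 is highest with SOX10 and with HDAC3 knockout.

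The 3 MED23 knockout comparisons share no libraries and can be set beside each other. Of the 33 collagen genes tested in all of them, 8 were called higher in every experiment (COL1A1, COL3A1, COL4A5, COL4A6, COL5A1, COL12A1, COL13A1 and COL17A1), against 11.8% of the 17953 genes tested in all. Another 14 were lower in every experiment (COL2A1, COL4A1, COL4A2, COL5A3, COL6A3, COL9A2, COL9A3, COL11A1, COL11A2, COL14A1, COL15A1, COL16A1, COL18A1 and COL19A1), against 11.2%, and the other 11 did not pass in at least 1. No collagen gene was called in opposite directions. The share of all genes so called was not computed, so this cannot be read as particular to collagens. In the Mediator, SOX10 and HDAC3 experiments COL5A1 rose by 2.41, 2.44 and 1.99, COL1A1 by 1.79, 1.63 and 1.38, COL4A6 by 1.96, 2.04 and 2.06 and COL17A1 by 2.28, 1.64 and 2.31. COL14A1 fell by 2.78, 1.56 and 3.08 and COL19A1 by 2.14, 1.61 and 1.63. COL3A1 had under 30 counts over a group in the SOX10 and HDAC3 experiments, and COL11A1 in the SOX10 experiment. The call of COL2A1 in the SOX10 experiment (-0.55) was lost without empty-vector control replicate 2 (-0.51) or MED23 empty-vector replicate 1 (-0.48) or 2 (-0.53).

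**Figure D5:**
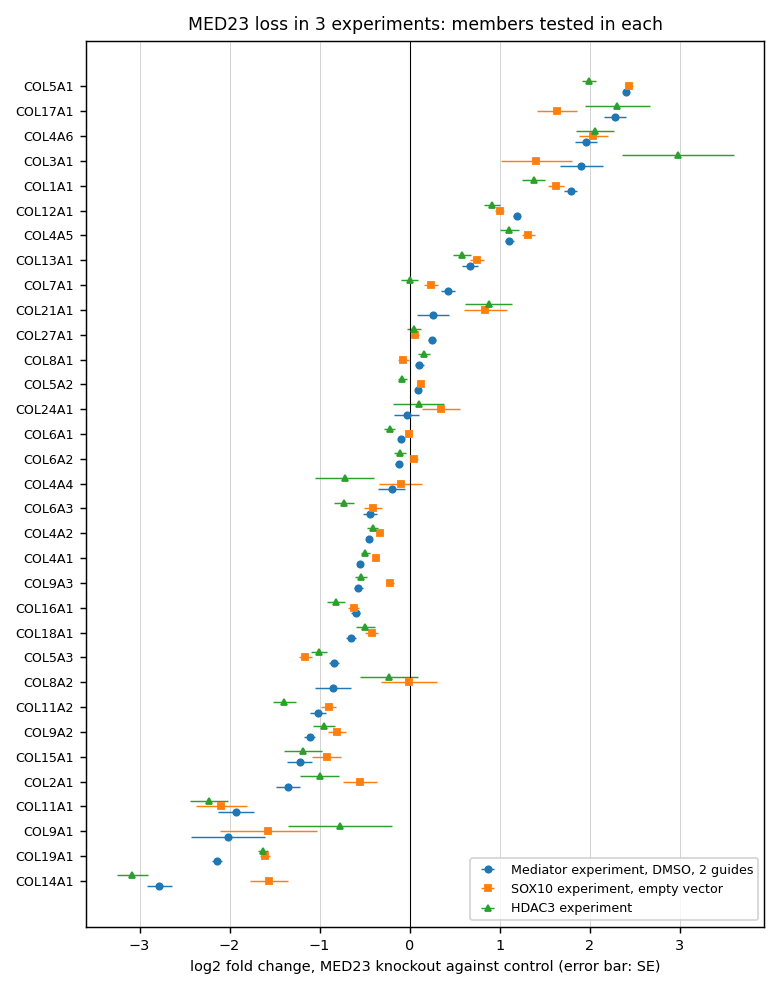
Log2 fold change (± SE) with MED23 knockout in the Mediator (DMSO), SOX10 (empty vector) and HDAC3 experiments for the 33 collagen genes tested in all 3. The 8 genes called higher in every experiment, among them COL5A1 near 2, and the 14 called lower, among them COL14A1 and COL19A1, lie on the same side of 0 throughout.

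Comparisons without shared libraries also allow MED23 loss, SOX10 and HDAC3 loss to be read together. Of 33 genes tested in both, 8 were higher with MED23 loss in the Mediator experiment and lower with SOX10 in control cells (6.58% of all genes), 7 were lower and higher (7.52%), 5 were lower in both (1.72%) and 0 were higher in both (1.33%). The 5 were COL5A3, COL6A1, COL6A2, COL6A3 and COL9A3, and 3 remained, without COL6A1 and COL6A2, when DMSO control replicate 2 or 3 or MED23 guide 2 replicate 1 was left out. The 7 became 4 without empty-vector control replicate 3 or SOX10 control replicate 3, and without DMSO control replicate 3 COL8A1 was higher in both. The 8 became 7, without COL4A5, when replicate 1 or 2 of the empty-vector or SOX10 control was left out. Of 35 tested with MED23 loss in the Mediator experiment and HDAC3 loss, 5 were higher and lower (7.15%), 10 lower and higher (7.78%), 2 lower in both (COL2A1 and COL8A2, 5.70%) and 1, COL7A1, higher in both (4.95%). That 1 became 2 without HDAC3 control replicate 1 (with COL17A1) or DMSO control replicate 3 (with COL8A1). The 10 lower and higher became 8, without COL4A2 and COL9A3, when HDAC3 control replicate 2 or 3 or HDAC3 knockout replicate 1 was left out. The 5 higher and lower became 4, without COL5A1, when HDAC3 control replicate 1 or 3 or HDAC3 knockout replicate 2 or 3 was left out. With SOX10 and HDAC3 loss, 6 of 33 were higher in both (6.03%), 5 lower in both (5.27%), 4 lower with SOX10 and higher with HDAC3 loss (2.18%) and 0 the reverse (2.00%). These counts also rested on single libraries. In some fits without 1 library the 6 became 5 (without COL4A2) and the 5 became 4 (without COL5A1). The 4 became 3 (without COL9A3) or, without HDAC3 control replicate 1, 5 (with COL17A1).

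Genes that modify, secrete or bind collagen were described from lists made beside the collagen genes, with earlier results of these data known. Their counts stand beside these shares of all genes called higher and lower: 35.8% and 30.3% with the drug, 27.9% and 27.0% with MED12, 20.4% and 20.2% with MED19, and 18.4% and 18.5% with MED23 guides, 11.6% and 11.0% with SOX10, 21.2% and 20.7% with SOX10 in MED23 knockout, 21.2% and 20.9% in HDAC3 knockout, and 18.2% and 18.4% in double knockout. Several counts are near them, such as the 3 of 17 chain modification genes higher with MED19 guides, the 5 of 16 fibril partners higher with MED12 guides and the 3 of 10 receptors lower with the drug. Of 17 enzymes and chaperones of chain modification and folding, 15 were higher and 2 lower in HDAC3 knockout. P4HA3 (1.56), P3H2 (1.45), P4HA2 (1.41) and P4HB (0.75), prolyl hydroxylase chains, led, with a median of 0.53 over the list, beside -0.000129 over all genes. In control-guide cells with the drug the list had 5 higher and 11 lower, COLGALT1, which adds galactose to hydroxylysine, at -1.20 and P4HA3 at -0.70. It had 8 higher and 9 lower with MED12 guides, 3 and 10 with MED19 guides, 2 and 12 with MED23 guides, 10 and 0 with SOX10, 6 and 5 with SOX10 in MED23 knockout, and 11 and 2 in double knockout against control. P3H2 rose by 2.37 with MED12 guides and 1.32 with MED23 guides in DMSO, and by 3.39 with MED12 guides under drug.

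Beside those shares of all genes, of 12 genes of secretion and propeptide cleavage, 8 were higher and 3 lower with the drug, 11 and 1 with MED12 guides, 5 and 2 with MED19 guides and 5 and 4 with MED23 guides. BMP1, which removes the propeptide at the chain's C-terminal end, rose by 1.12 with the drug and by 1.02, 0.57 and 0.60 with the 3 subunits, and its relative TLL1 by 1.31, 2.40, 0.91 and 2.67. ADAMTS2, which removes the N-terminal propeptide, fell by 1.89, 1.81 and 1.68 with the subunits and rose by 1.59 in HDAC3 knockout, where 5 of 11 genes were higher and 2 lower. Of 16 fibril partners, 10 were higher and 4 lower with the drug, 5 and 8 with MED12 guides, 3 and 8 with MED19 guides and 8 and 5 with MED23 guides. LUM, a small proteoglycan that spaces fibrils and also a fibroblast marker here, rose by 2.81, 0.74 and 1.30 with the subunits, and FBN1, the microfibril protein, by 1.59 with the drug and by 1.52 and 0.87 with MED12 and MED23 guides. FN1, fibronectin, fell by 0.67 with MED19 guides and by 1.21 with SOX10. BGN, another small proteoglycan, fell by 2.59 in HDAC3 knockout and SPARC, a collagen chaperone outside the cell, rose by 1.38.

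Beside the same shares of all genes, of 10 collagen receptors tested, 6 were higher and 3 lower with the drug, 8 and 1 with MED12 guides, 6 and 1 with MED19 guides and 5 and 2 with MED23 guides. ITGA11, the integrin chain that binds fibrillar collagen, rose by 3.17, 1.76 and 2.29 with the subunits, by 1.99 with MED23 guide 1 and empty vector and by 2.02 with MED23 knockout in the HDAC3 experiment. DDR1, a receptor kinase for collagen, rose by 1.77 with the drug, and ITGA10 and ITGA1 fell by 2.00 and 1.34. SOX10 in MED23 knockout cells lowered 7 of 9 receptors and raised 0, ITGA11 by -1.73 and ITGA1 by -1.01. In HDAC3 knockout 5 of 9 were higher and 2 lower, ADGRG1, a receptor for type III collagen, by 1.17.

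A few members could not be followed. COL6A5 and COL10A1 had under 30 counts over the libraries of every group of the Mediator experiment, and 10 and 6 members were that low in every group of the SOX10 and HDAC3 experiments. COL6A6, COL20A1, COL23A1, COL25A1, COL26A1 and COL28A1 each fell under 30 counts in some Mediator groups. Of these, COL23A1, COL25A1 and COL28A1 were called higher with the drug from under 30 counts in DMSO, and no fold is given. COL9A1 passed as higher with the drug (1.34). Exons of 12 members overlap those of another gene, 9 on the opposite strand, and only COL18A1 shares more than 10% of its exon length (16.4%, with SLC19A1). Since the strand setting of the counting is not given in the sources used here, reads of such partners cannot be told apart.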

How the data were processed

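Poly(A) RNA of A375 cells was measured in 66 libraries of 22 groups and 3 experiments, prepared with a stranded kit, per the labels' protocols. Reads were processed with bcl2fastq, HISAT2 and HTSeq on hg38, per the submitters' processing notes, with versions, annotation and strand setting not given in the sources used here. The authors deposited 1 table of raw counts per gene for each experiment. Columns were matched to samples by name, but 15 columns differ from the sample title: 6 GFP columns of the Mediator table and 6 MED23 columns of the SOX10 table have shortened guide names, so that guide 1 there comes from the labels, and 3 control columns of the HDAC3 table, named for GFP, were matched by elimination. Each experiment is also a separate batch in the labels, so no fit crosses tables.

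Counts were filtered with filterByExpr (minimum count 10, minimum total 15), scaled by TMM and fitted with 1 mean per group in edgeR 4.0.16 (R 4.3.3), using the quasi-likelihood test with Benjamini-Hochberg adjustment over all genes tested and a threshold of 0.05. The SE was derived from the F statistic, as the size of the log2 change over its square root. RPKM used union exon lengths of GENCODE 29, which matched 58676 gene IDs. Alternatives were DESeq2 1.42.0, its size factors, no filter, a replicate block, only the groups compared, each guide alone, a 2-fold minimum and leaving out each library. The fit was tested on simulated data.

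Total counts per library set the precision, and genes with under 30 counts in a group are given no fold. In comparisons of groups the text names COL1A1, COL1A2, COL5A1, COL5A2, COL4A1, COL4A2, COL6A1, COL6A2 and COL6A3 where tested, with up to 8 further members of largest change among those that passed, and others to fill out a class; for interactions it names fewer. Lists of related genes are represented by up to 4 members. The members, lists and markers were chosen with earlier results of these data known. Replicate numbers were taken to pair libraries only where the correlation of deviations exceeded 0.1 in every pair, a hint from the data. That held in 1 comparison, double against MED23 knockout (mean 0.218, 0.152 to 0.332). Mean correlations were higher, with some pairs under 0.1, for HDAC3 knockout (0.312, 0.092 to 0.568) and MED23 knockout (0.231, -0.081 to 0.49) against control. The main values of all comparisons use no pairing. No protein sequences were used here.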

Additional observations from a re-analysis of the deposited data

Results flagged for a closer look

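Interaction terms of at least 1 on the log2 scale, in genes that passed edgeR's quasi-likelihood test and had at least 30 counts in each group, mark collagen genes whose change with a knockout differed between conditions. In this paragraph a term is the change with the knockout under vemurafenib minus that in DMSO. With MED12 guides it was positive for COL13A1 (2.76), COL2A1 (2.60), COL8A2 (1.41) and COL14A1 (1.01). It was negative for COL21A1 (-5.93), COL22A1 (-4.16), COL4A6 (-2.05), COL16A1 (-1.82), COL8A1 (-1.78), COL4A5 (-1.57), COL15A1 (-1.29), COL24A1 (-1.26), COL5A2 (-1.14), COL11A1 (-1.12), COL7A1 (-1.06) and COL11A2 (-1.04). With MED19 guides it was positive for COL2A1 (2.02), COL13A1 (1.27) and COL8A2 (1.03) and negative for COL21A1 (-2.34), COL22A1 (-2.0), COL8A1 (-1.49), COL4A6 (-1.22) and COL16A1 (-1.05). With MED23 guides it was positive for COL14A1 (1.40), COL3A1 (1.35), COL2A1 (1.26) and COL8A2 (1.03) and negative for COL15A1 (-1.84), COL11A1 (-1.62), COL16A1 (-1.19) and COL8A1 (-1.05). These 3 sets share the control-guide libraries.

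In the HDAC3 experiment the term is the change with HDAC3 knockout in MED23 knockout cells minus that in control cells. It was positive for COL2A1 (1.75) and COL11A2 (1.05) and negative for COL17A1 (-2.31), COL8A1 (-1.79), COL4A5 (-1.32) and COL15A1 (-1.09).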

How the results depend on the processing

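The number of collagen genes called in each of the 22 comparisons stayed within 1.5 times its value with DESeq2, with its size factors, without the filter and without any single library. So did the 20 refitted with only the groups compared and the 11 refitted with either guide alone. With the replicate number as a block all 22 counts did so too, and of single-gene calls 6 were gained and 3 lost. COL13A1 in the interaction of MED23 knockout and drug was one of the 3 (0.76, adjusted p = 0.0505).

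A 2-fold minimum lowered the count in all 22 comparisons, by over 1.5 times in 20. It left 27 of 37 with the drug and 15 of 21 with HDAC3 knockout. With the same minimum, 18.5% of all genes were higher and 11.2% lower with the drug, and 4.63% and 3.57% with HDAC3 knockout. In DMSO the minimum left 22 genes for MED12, 12 for MED19 and 16 for MED23 guides, and under drug 23, 12 and 18. The shares of all genes higher and lower in DMSO were 9.91% and 5.72%, 3.56% and 2.74%, and 3.82% and 2.97%. Under drug they were 10.9% and 10.2%, 4% and 4.12%, and 5.71% and 5.92%. The interactions with drug kept 19, 9 and 10, and the contrasts of MED12 and MED19 with MED23 kept 9 and 5. For the interactions the shares of all genes were 6.31% and 8.4%, 2.25% and 2.88%, and 2.78% and 3.58%. For the contrasts they were 6.9% and 3.35%, and 1.84% and 2%. In the SOX10 experiment the minimum left 7 for SOX10 in control cells, 12 for MED23 knockout and 14 for SOX10 in MED23 knockout. It left 3 for MED23 knockout with SOX10 against control and 1 for the interaction. The shares of all genes, in this order, were 0.794% and 1.59%, 2.98% and 2.53%, 2.14% and 3.28%, 1.18% and 1.6%, and 0.777% each. In the HDAC3 experiment the minimum left 12 for MED23 knockout, 14 for double against MED23 knockout, 3 for double knockout against control and 6 for the interaction. The shares of all genes, in this order, were 2.28% and 2.49%, 2.96% and 3.07%, 2.18% and 2.82%, and 1.42% and 2.13%.

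With 1 guide alone 3 signs turned: with guide 1, COL4A1 in the interaction of MED19 and drug (0.16, main -0.04, guide 2 -0.24) and COL27A1 between MED19 and MED23 (0.05, main -0.09), and with guide 2, COL17A1 between MED19 and MED23 (-0.50, main 0.18, guide 1 0.85). For COL4A1 and COL17A1 the guides taken alone were called in opposite directions. With DESeq2's size factors the calls of COL6A2 with MED12 guides (0.08), of COL6A1 with MED23 guides under drug (-0.08) and of COL5A1 in the interaction of MED12 and drug (-0.09) were lost. The cause of these changes was not tested. Over all leave-one-library-out fits, 8074 single-gene values kept their side of the threshold, 251 lost a call and 57 gained one. Depth limits COL6A5, COL10A1 and the other genes under 30 counts in a group, and most in the SOX10 experiment.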
